A study of Mus musculus with 4 samples.

Results

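Potassium channel genes were taken as all genes of the kidney cluster table whose symbol starts with Kcn, without the noncoding RNA gene Kcnq1ot1, that reached an average of 0.01 normalised unique molecular identifiers (UMIs) per nucleus in at least 1 of 17 cell clusters. The rule kept 60 of 83 such genes, out of 24468 genes in the table. The members just inside the threshold were Kcne3 (0.0108, 5 UMIs), Kcnk4 (0.0111, 2 UMIs) and Kcnmb1 (0.0112, 5 UMIs). Just outside were Kcnab3os (0.00974, 7 UMIs), Kcna6 (0.00855, 7 UMIs), and Kcna2 and Kcne4 (both 0.00789, 1 UMI). Because the cluster averages chose the members, their pattern over clusters is given as a description, with no test.

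Kidneys came from male C57BL/6 mice, and RNA was counted in single nuclei of cortex with outer medulla by a droplet 3' assay. The Cis9w group received cisplatin, an anticancer drug toxic to the proximal tubule, in 4 weekly injections of 8 mg/kg, and tissue was taken 9 weeks after the first of them. The CT9w group was untreated, and each group had 2 samples. Values are pooled over nuclei in 2 tables, 1 by cluster over all groups and 1 of proximal tubule nuclei by group, and no column belongs to a sample, so the spread between animals is not known. How many libraries of a group the proximal tubule table pools was not stated by the submitters' labels. Of UMIs, the CT9w pool held 5123727 UMIs and the Cis9w pool 8557662, so that 3 UMIs over a pool make an average of 0.00164 and 0.000981. Among the clusters, mixed-2 had the fewest UMIs (254460) and PT-S2/S3 the most (7425098). PT-S1 had 5420077 and PT-S2 4278626. PT-S1, PT-S2 and PT-S2/S3 together thus held more UMIs than both pools together. The pools therefore lack part of the proximal tubule UMIs of the cluster table, and which part was not stated by the labels. In such pools more nuclei of a type and more RNA per nucleus cannot be told apart.

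Potassium channels let potassium ions pass down their gradient and set the voltage across the cell membrane. In the nephron, basolateral channels recycle the potassium that the sodium pump brings in, and apical channels of the thick ascending limb and the collecting system recycle or secrete potassium into the tubule fluid. Inward rectifiers and two-pore-domain channels are open near the resting voltage, voltage-gated, KCNQ and EAG-family channels open on depolarisation, and another group opens on intracellular calcium or sodium. Auxiliary subunits form no pore and alter the gating or traffic of the pore subunits. The members comprised 11 inward rectifier genes, 8 two-pore-domain genes, 6 voltage-gated pore subunit genes of the Kv1 to Kv4 classes, 5 silent subunit genes, 4 KCNQ genes, 6 EAG-family genes, 7 calcium- or sodium-activated genes and 11 auxiliary subunit genes. The remaining 2 were Kcnrg, which encodes a regulator of channel assembly, and Kcnd3os, which is antisense to Kcnd3.

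Pore-forming members share a short coding stretch for the selectivity filter, the part of the protein that picks potassium over sodium, and it is shown here because it separates the members that make a pore from those that do not. The search was for GGNTANGGN or GGNTTNGGN in frame on the coding strand of the longest coding transcript, 2 codons after a codon for threonine or serine. Of 59 coding members 47 held it, that is every member of the pore-forming families. The 12 without it were the 11 auxiliary subunit genes and Kcnrg. Of all protein-coding genes in the annotation 3.16% held it, so a match alone does not mark a channel. The stretches below are 27 bases long, 5′ to 3′ on the coding strand, in GENCODE M21 coordinates (GRCm38, the assembly also called mm10), with the filter codons in capitals. They are those of members whose pools differed at the deposited p given further on.
Kcnh8, chr17:52877988-52878014, plus strand: acaagcgttGGGTTTGGGaatgtgtct
Kcnh1, chr1:192337751-192337777, plus strand: accagtgtgGGCTTTGGTaacattgcc
Kcnk2, chr1:189256572-189256598, minus strand: acgaccattGGATTTGGAgactacgtg
Kcnt1, chr2:25894364-25894390, plus strand: tcaactgtgGGCTTCGGTgatgtgacg
Kcnb2, chr1:15710043-15710069, plus strand: accactgtgGGCTACGGTgacatttac
Kcng1, chr2:168262632-168262658, minus strand: acaaccgtaGGCTACGGAgacatggta
The stretch of Kcnk2 is its second, since two-pore-domain genes carry a pair of pore loops, and 6 of the 8 had 2 matches. All 6 EAG-family genes had GGNTTNGGN, and the 6 voltage-gated pore subunit genes and 4 KCNQ genes had GGNTANGGN. Kcnip4, the other member that differed at that p, is an auxiliary subunit gene and had no match.

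Inward rectifiers expressed in tubules are shown for comparison, since they describe the segments in the next paragraphs. All 3 had GGNTANGGN.
Kcnj1, chr9:32396702-32396728, plus strand: gtgaccataGGTTACGGAttcaggttt
Kcnj10, chr1:172369299-172369325, plus strand: accaccatcGGCTATGGCttccgctac
Kcnj16, chr11:111024901-111024927, plus strand: accaccattGGATACGGTtaccgctgt

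Across clusters, members were spread over most cell types, and 6 of 60 were highest in a proximal tubule cluster other than PT-injury/repair. The clusters carry the names of the column headers, except PT-injury/repair, whose columns are headed Cluster 14. In the other 5 proximal tubule clusters the summed average of 10 proximal tubule markers was 15.3 to 41.8, against 3.90 in PT-injury/repair. The highest average of 13 members (21.7%) lay in Mixed-1, where 9.12% of the 16488 genes that reached the same threshold were highest. Immune cells held 9 members (18.7% of genes were highest there) and PT-injury/repair 6 (4.99% of genes). TAL, the thick ascending limb, held 5 (4.71%) and PC, the principal cells, 5 (6.77%). CNT, the connecting tubule, held 4 (4.06%), IC-A/IC-B, the intercalated cells, 4 (6.25%) and Podocyte 4 (4.2%). The endothelial clusters EC1 and EC2 held 2 (4.89%) and 1 (8.46%), and mixed-2 held 1 (7.16%). PT-S2/S3 (2.18%), PT-S2 (1.73%) and PT-S3-2 (5.45%) held 2 each. No member was highest in PT-S1 (3.71%), in PT-S3-1 (4.87%) or in DCT+CNT, the distal convoluted with connecting tubule (2.76%). These shares follow from the averages that chose the members, so nothing is read from them. For 9 members the highest average was at least 10 times the next, and for 15 it was under 1.2 times. There were 14 members that reached the threshold in 1 cluster only, so a high ratio for them follows in part from the rule. For 27 members the counting interval of that ratio included 1, so their order at the top is not resolved. There were 17 members with under 20 UMIs in their highest cluster. Intervals are 95% Clopper-Pearson intervals of UMI sums and cover counting error only.

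**Figure D1:**
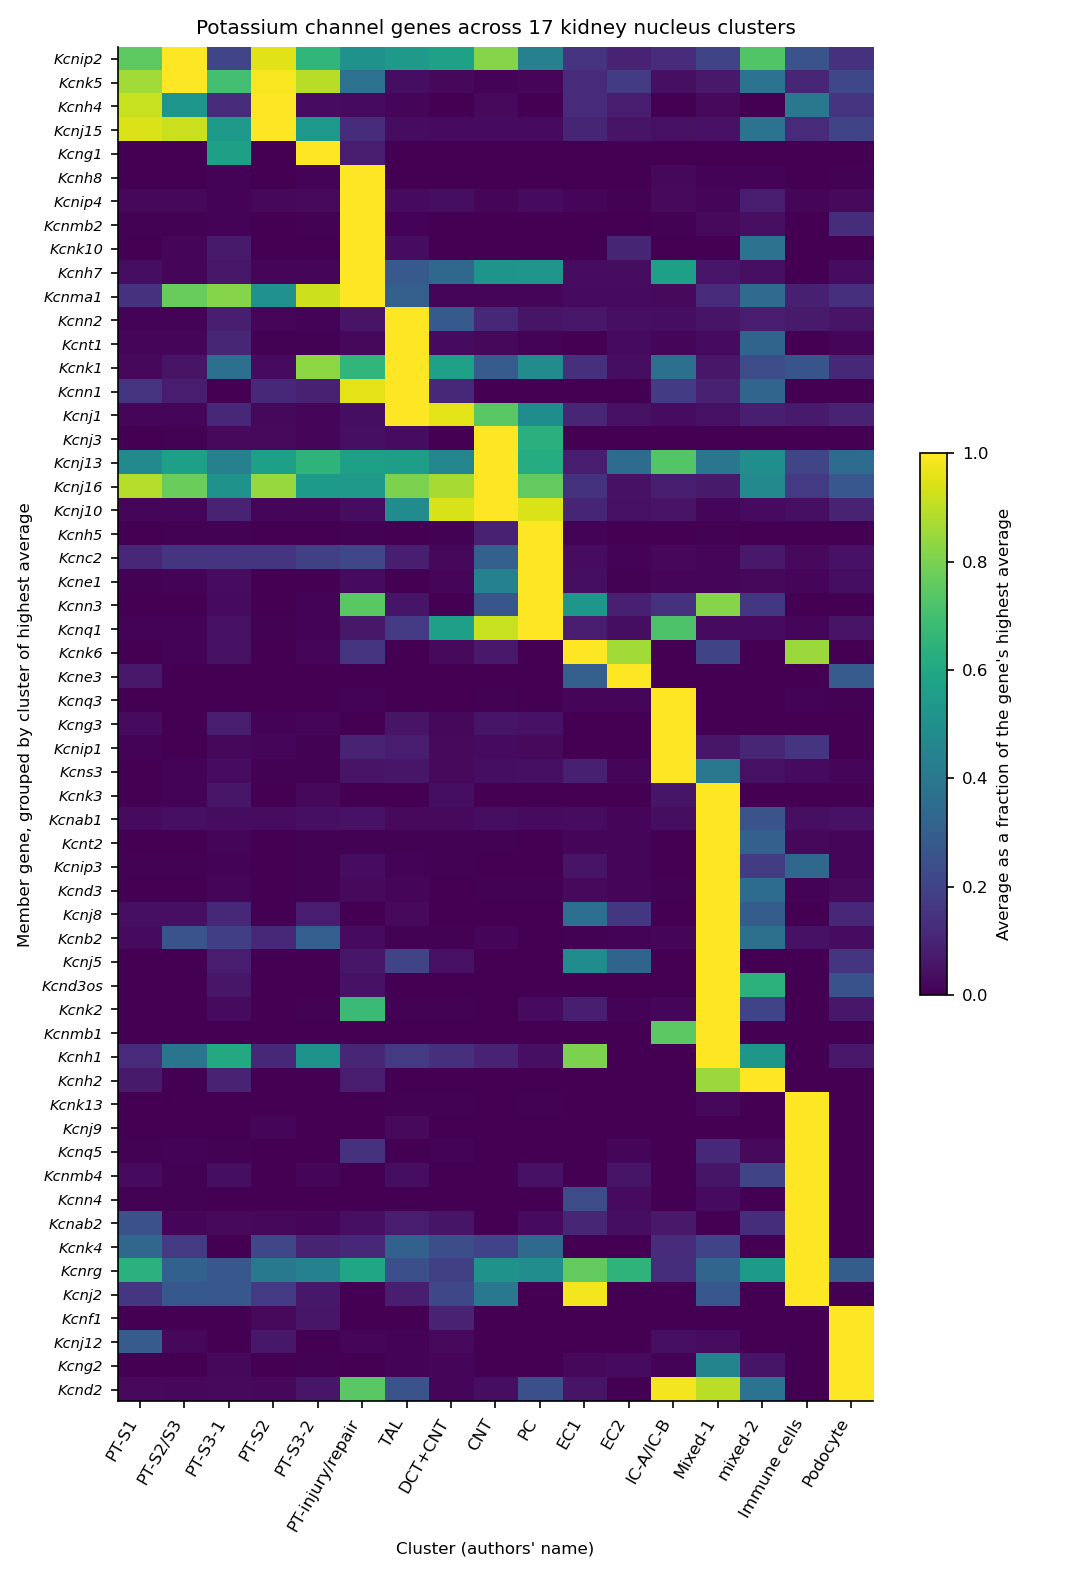
Averages of 57 of the 60 members (rows) in the 17 clusters (columns), each as a fraction of that gene's highest average, grouped by the cluster of the highest average. The genes highest in PT-injury/repair and those highest in Mixed-1 form blocks, while Kcnj13 and Kcnrg are spread over most clusters.

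The inward rectifier genes divided the nephron. Kcnj15, which encodes a basolateral channel subunit of the proximal tubule, had averages, in normalised UMIs per nucleus, of 2.90 in PT-S2, 2.73 in PT-S1, 2.67 in PT-S2/S3, 1.56 in PT-S3-1 and 1.55 in PT-S3-2. It was at 0.383 in PT-injury/repair, and in TAL, DCT+CNT, CNT and PC it was between 0.0852 and 0.0966. Kcnj15 was thus high in the first and second segments, lower in the third, and low outside the proximal tubule apart from mixed-2 (1.10) and Podocyte (0.599).

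Kcnj16 and Kcnj10 encode subunits that join in the basolateral channel of the distal nephron, and Kcnj16 also pairs with the Kcnj15 product. Kcnj16 averaged 2.31 in CNT, 2.05 in PT-S1, 2.00 in DCT+CNT, 1.95 in PT-S2, 1.85 in TAL and 1.75 in PC, and 0.191 in IC-A/IC-B. Kcnj10 averaged 0.281 in CNT, 0.265 in PC, 0.264 in DCT+CNT and 0.135 in TAL, and at most 0.0271 in any proximal tubule cluster. Kcnj16 therefore spanned both proximal and distal clusters, and Kcnj10 was mainly distal, with CNT and PC not resolved from each other (ratio 1.06, 0.827 to 1.36).

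Kcnj1, which encodes the apical channel ROMK that recycles and secretes potassium, averaged 1.02 in TAL, 0.98 in DCT+CNT, 0.76 in CNT and 0.498 in PC. The ratio of TAL to DCT+CNT was 1.04 (0.962 to 1.13), so these did not differ beyond counting error. Kcnj1 was 0.032 in IC-A/IC-B and 0.0178 to 0.0206 in 4 proximal tubule clusters, but 0.116 in PT-S3-1. PT-S3-1 also had the highest summed average of thick ascending limb markers among the proximal tubule clusters, 5.28 against 1.77 to 2.29 in the others, and the part of such nuclei or of free RNA in its values was not tested. Kcnj13 was flat, with its highest average in CNT (0.0796) and 0.0346 to 0.0516 in the proximal tubule clusters. It overlaps Gigyf2 on the opposite strand. A strand setting for the counting was not found in the labels or headers, and the part of Gigyf2 reads in the Kcnj13 values was not tested. Kcnj3, a G protein-gated subunit gene, was found in CNT (0.0597) and PC (0.0378) and at or under 0.00244 elsewhere.

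**Figure D2:**
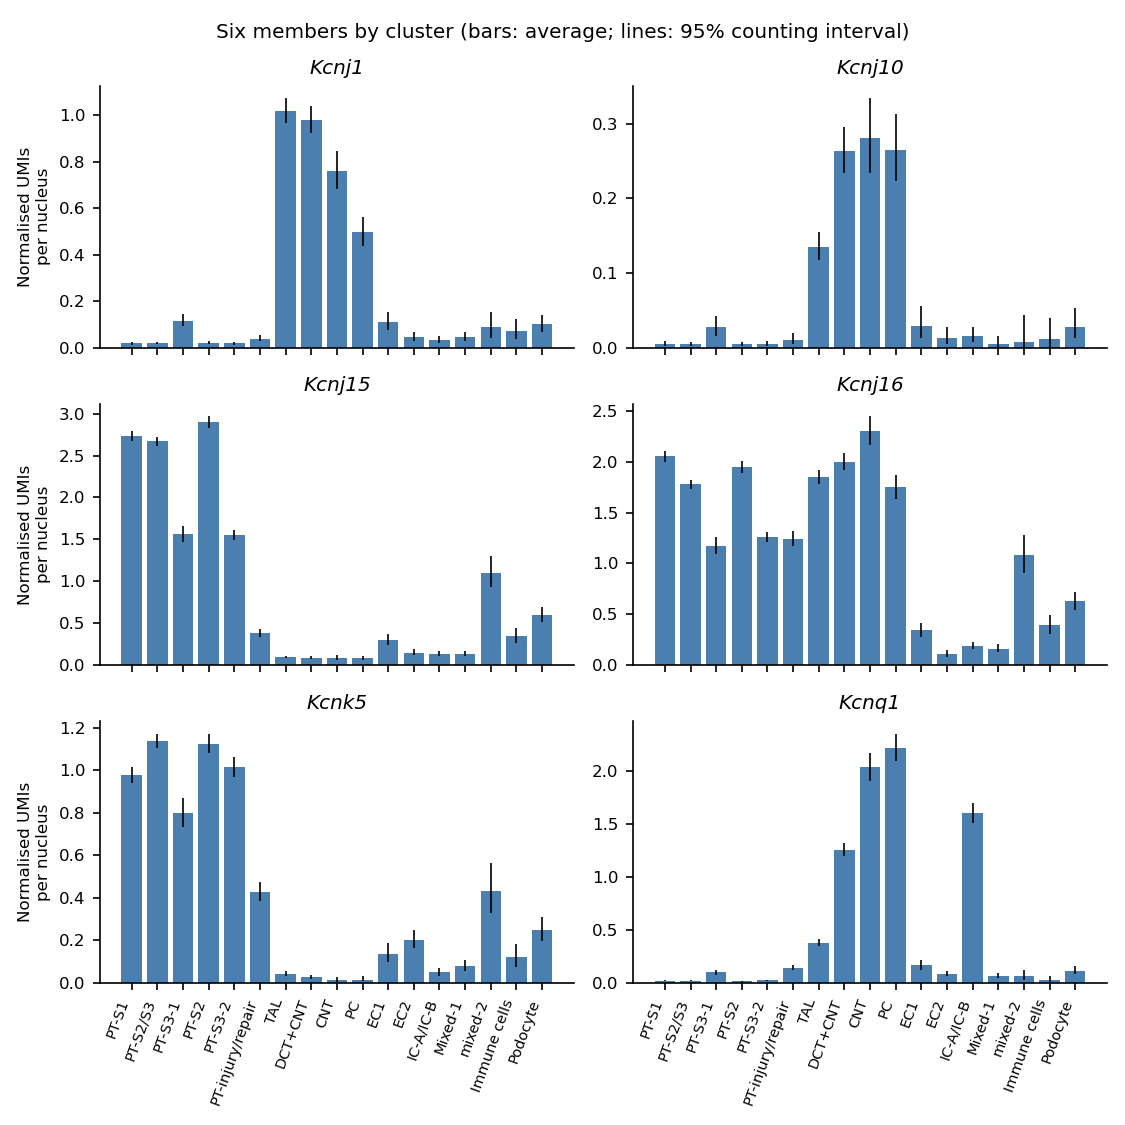
Averages (bars, normalised UMIs per nucleus, with 95% counting intervals as lines) of Kcnj1, Kcnj10, Kcnj15, Kcnj16, Kcnk5 and Kcnq1 in the 17 clusters, each panel on its own axis from 0. Kcnj15 and Kcnk5 are high in the proximal tubule clusters, Kcnj1, Kcnj10 and Kcnq1 in the distal ones, and Kcnj16 in both.

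Among two-pore-domain genes, Kcnk5, whose product is a basolateral, alkali-activated channel of the proximal tubule, averaged 1.14 in PT-S2/S3, 1.12 in PT-S2, 1.02 in PT-S3-2, 0.978 in PT-S1 and 0.799 in PT-S3-1. It was at 0.429 in PT-injury/repair, 0.434 in mixed-2 and 0.2465 in Podocyte, and at most 0.0435 in TAL, DCT+CNT, CNT and PC. Kcnk1 was highest in TAL (0.169) and PT-S3-2 (0.141), with 0.111 in PT-injury/repair and 0.0037 in PT-S1. Kcnk13, which is known from microglia and macrophages, averaged 0.486 in Immune cells, 43.5 times (17.95 to 137) its next highest cluster. Kcnk2, a stretch- and lipid-sensitive channel gene, averaged 0.197 in Mixed-1 and 0.134 in PT-injury/repair and at most 0.0395 elsewhere. Kcnk10, a close relative of Kcnk2, was highest in PT-injury/repair (0.0208, 17 UMIs). Kcnk3 was highest in Mixed-1 (0.0246, 11 UMIs) and Kcnk6 in EC1 (0.0326, 10 UMIs).

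Several voltage-gated genes had their highest averages in the principal or intercalated cells. Kcnq1, a channel gene that also works in epithelia, averaged 2.22 in PC, 2.04 in CNT, 1.60 in IC-A/IC-B, 1.26 in DCT+CNT and 0.38 in TAL, and 0.015 to 0.142 in proximal tubule clusters. Kcne1, which encodes its auxiliary partner, averaged 0.348 in PC and 0.152 in CNT, and 0.00417 in IC-A/IC-B, where Kcnq1 was high. Kcnq1 contains Kcnq1ot1 on its opposite strand, and Kcnq1ot1 was highest in Podocyte (3.69), where Kcnq1 was 0.115. Kcnh5, an EAG-family gene, averaged 1.18 in PC, 10.7 times (8.02 to 14.6) its average in CNT. Kcnc2 averaged 1.72 in PC and 0.524 in CNT, but also 0.188 to 0.367 in the proximal tubule clusters. In IC-A/IC-B, Kcnq3 averaged 0.524, 60.8 times (23.6 to 224) the next cluster, and the silent subunit genes Kcns3 and Kcng3 averaged 0.184 and 0.0403. Kcnip1 was also highest there (0.0723), and it overlaps Kcnmb1 on the opposite strand.

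Proximal tubule clusters differed among themselves in voltage-gated genes. Kcnh4, an EAG-family gene, averaged 0.0826 in PT-S2, 0.0756 in PT-S1 and 0.0433 in PT-S2/S3, and 0.0105 and 0.00274 in PT-S3-1 and PT-S3-2. Kcng1, a silent subunit gene whose product assembles with that of Kcnb2, averaged 0.0159 in PT-S3-2 (29 UMIs) and 0.00903 in PT-S3-1. Beyond 1 UMI in PT-injury/repair it had no UMI in the other 14 clusters, and it reached the threshold of 0.01 in PT-S3-2 only. Kcnb2 averaged 0.166 in PT-S3-2, 0.144 in PT-S2/S3, 0.102 in PT-S3-1 and 0.0167 in PT-S1, and its highest average was in Mixed-1 (0.555). Kcnh1 too was higher in the third-segment clusters than in PT-S1, with 0.0271 in PT-S3-1 and 0.0231 in PT-S3-2 against 0.00556 in PT-S1 (0.0447 in Mixed-1). Kcnip2, an auxiliary gene, averaged 0.0216 in PT-S2/S3 (80 UMIs) and 0.00451 in PT-S3-1 (3 UMIs).

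Calcium- and sodium-activated genes had 3 of 7 members highest in TAL. Kcnn2 averaged 0.301 in TAL and 0.0847 in DCT+CNT, and Kcnt1, which encodes a sodium-activated channel, 0.221 in TAL and 0.071 in mixed-2 (9 UMIs). In the proximal tubule clusters Kcnt1 was highest in PT-S3-1 (0.0241). Kcnn1 averaged 0.0242 in TAL and 0.0232 in PT-injury/repair. Kcnma1, which encodes the large-conductance calcium-activated channel known for flow-driven potassium secretion in the distal nephron, averaged 0.768 in PT-injury/repair, 0.71 in PT-S3-2, 0.627 in PT-S3-1, 0.59 in PT-S2/S3, 0.388 in PT-S2 and 0.111 in PT-S1. In TAL it averaged 0.231, and in CNT, PC and IC-A/IC-B 0.0133, 0.00946 and 0.0181. Kcnma1 RNA was thus higher in the later and injured proximal tubule clusters than in the distal ones. Kcnn3 was highest in PC (0.0492, 26 UMIs), with 0.0402 in Mixed-1 and 0.0366 in PT-injury/repair.

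In the clusters of vessels, stroma and immune cells, members of several families were high. In Mixed-1, where 12 fibroblast, mesangium and pericyte markers had their highest summed average (8.97), Kcnt2 averaged 3.08 and Kcnd3 2.04, against 0.947 and 0.718 in mixed-2 and at most 0.0608 elsewhere. Kcnd3os, on the opposite strand of Kcnd3, had 11 UMIs in Mixed-1. The auxiliary gene Kcnab1 averaged 0.93 there and at most 0.237 elsewhere. Kcnj8, the pore subunit of a vascular ATP-sensitive channel, was highest in Mixed-1 (0.0268, 12 UMIs), as was Abcc9, the gene of its regulatory partner (0.212). Kcne3 had 5 UMIs in EC2, an endothelial cluster. Kcnh2, the gene of a cardiac repolarising channel, had 2 UMIs in mixed-2. In Immune cells Kcnq5 averaged 0.912, Kcnn4, a lymphocyte and macrophage channel gene, 0.0718 (13 UMIs) and Kcnj9 0.0276 (5 UMIs). In Podocyte Kcng2 averaged 0.144, Kcnj12 0.0655, Kcnd2 0.0624 and Kcnf1 0.0187 (6 UMIs). Kcnd2 was nearly as high in IC-A/IC-B (0.0612), and the ratio of 1.02 (0.569 to 1.77) did not resolve them.

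PT-injury/repair, where 10 injured tubule markers had their highest summed average (4.44), had channel genes that the other 5 proximal tubule clusters nearly lacked. Kcnh8, an EAG-family gene, averaged 0.712 there and 0.00254 in the other 5 together, a ratio of 280.0 (192 to 425). It was also 51.2 times (27.6 to 107) its next highest cluster of any kind, IC-A/IC-B. Kcnip4, which encodes a calcium-binding partner of Kv4 channels, averaged 1.74 against 0.036, a ratio of 48.3 (43.2 to 54.1). Kcnmb2, an auxiliary subunit gene of the Kcnma1 channel, averaged 0.19 against 0.00109 (ratio 175, 97.3 to 346). Kcnk2 had a ratio of 148 (77.5 to 317), Kcnn3 of 202 (51.2 to 1742), Kcnk10 of 114 (27.1 to 1020.0), Kcnh7 of 45.0 (32.2 to 64.0), Kcnd2 of 25.5 and Kcnq5 of 22.3. These ratios describe averages that also chose the members. Kcnk10 reached 0.01 in PT-injury/repair only, so its high ratio follows in part from the rule.

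Of the 60 members 25 were at least 2 times higher in PT-injury/repair than in the other 5 clusters, against 27.1% of all genes at the threshold, and 19 were at or under 0.5, against 14.7%. The same averages chose the members, so nothing is read from these counts. Among the 19 were Kcnh4 (0.0487), Kcnj15 (0.155), Kcnb2 (0.161), Kcnh1 (0.359) and Kcnk5 (0.406). Kcnma1 was 1.69 (1.55 to 1.83) and Kcnj16 0.709 (0.665 to 0.755). Marker lists of other types were also high in the same cluster. The summed average of 6 thin limb markers (0.614) and of 5 parietal epithelium markers (3.17) was higher there than in any other cluster. Pax8 made up 1.73 of the parietal sum. It was also counted in the proximal tubule pools, at 1.24 in CT9w and 1.33 in Cis9w, on a scale not comparable with the cluster averages. Dkk3 of that list was highest in Mixed-1, and Cldn1, Ncam1 and Akap12 in PT-injury/repair. The part of such cells in the channel values was not tested.

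The comparison of the Cis9w with the CT9w proximal tubule pool asks which members differ weeks after repeated cisplatin. Kcnh8 and Kcnip4 were higher, and Kcnk2, Kcng1, Kcnt1, Kcnh1 and Kcnb2 lower, while Kcnj15, Kcnj16 and Kcnk5, which were high in the proximal tubule clusters, stayed within 1.5-fold. Of the 60 members 55 are listed in this table, and Kcnh2, Kcnj5, Kcnk3 and Kcnmb1 are among those that are not. A member is said to have risen or fallen where the p in the authors' deposited table was under 0.05. By this 7 of 55 (12.7%) differed, against 2.13% of 21312 genes. The 2 that rose compare with 0.995% of genes higher, and the 5 that fell with 1.14% lower. How the authors computed p was not given in the sources used here, and the calls describe pools, not animals.

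**Figure D3:**
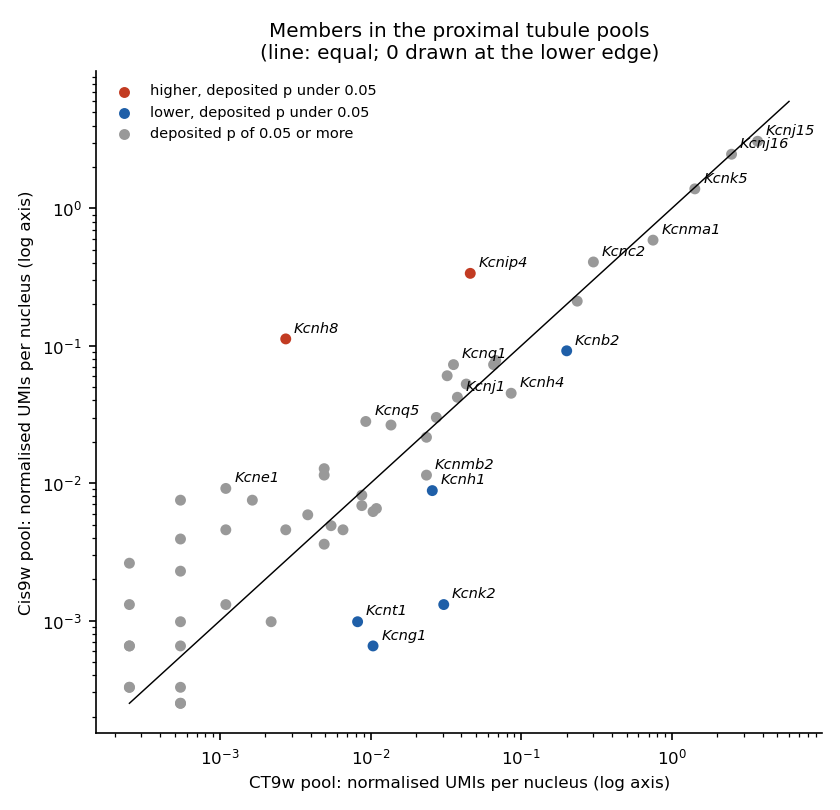
Averages of the 55 listed members in the CT9w (x axis) and Cis9w (y axis) proximal tubule pools, both in normalised UMIs per nucleus on log axes, with 0 drawn at the lower edge. Kcnh8 and Kcnip4 (red) lie above the line of equal averages, and Kcnb2, Kcnh1, Kcnk2, Kcng1 and Kcnt1 (blue) below it.

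Kcnh8 had 5 UMIs in CT9w (average 0.00273) and 343 in Cis9w (0.112). The ratio was 41.1 (17.4 to 127), and the authors' deposited table gave it p = 7.32e-14. For Kcnip4 the UMIs were 84 in CT9w (0.0459) against 1029 in Cis9w (0.336), and the ratio was 7.33 (5.87 to 9.27), and the authors' deposited table gave it p = 1.31e-07. Both genes were highest in PT-injury/repair. The 10 injured tubule markers moved with them, from a summed average of 0.328 to 1.12, with 9 higher and 6 of them past the same p. Krt20, Lcn2 and Sox9 of that list had no UMI in CT9w. What share of the channel values this carries was not tested. Kcnh8 spans chr17:52602709-52979194 and Kcnip4 chr5:48389502-49524907. Kcnip4 contains other annotated genes on both strands, and the part of their reads in its values was not tested.

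Kcnk2 had 56 UMIs in CT9w (0.0306) and 4 in Cis9w (0.00131), so it fell 23.4-fold (8.64 to 88.8), and the authors' deposited table gave it p = 0.0019. It went the opposite way from Kcnh8 and Kcnip4, although in the cluster table its proximal tubule UMIs also lay almost all in PT-injury/repair, 110 of them against 10 in the other 5 clusters. Kcnmb2, with the same cluster pattern, had 43 and 35 UMIs (0.0235 and 0.0114), a ratio of 0.487 (0.303 to 0.78), and the authors' deposited table gave it p = 0.962. Kcnh7 had 43 and 66 UMIs and a ratio of 0.919 (0.617 to 1.38). The 6 thin limb markers, whose sum was also highest in PT-injury/repair although 3 of them were highest in other clusters, went from a summed average of 0.254 to 0.2, with 1 of 6 higher and none past the p. Without Aqp1, one of those 3 and the largest term, the other 5 went from 0.0961 to 0.0608. Slc14a2, a urea transporter gene of this list that was highest in PT-injury/repair, went from 77 to 55 UMIs (ratio 0.428, 0.297 to 0.612). The authors' deposited table gave it p = 0.942. Bst1 and Fst, also highest there, had ratios of 0.977 (0.535 to 1.83) and 0.665 (0.382 to 1.16), so they did not differ beyond counting error. The part of such nuclei in the fall of Kcnk2 was not tested.

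**Figure D4:**
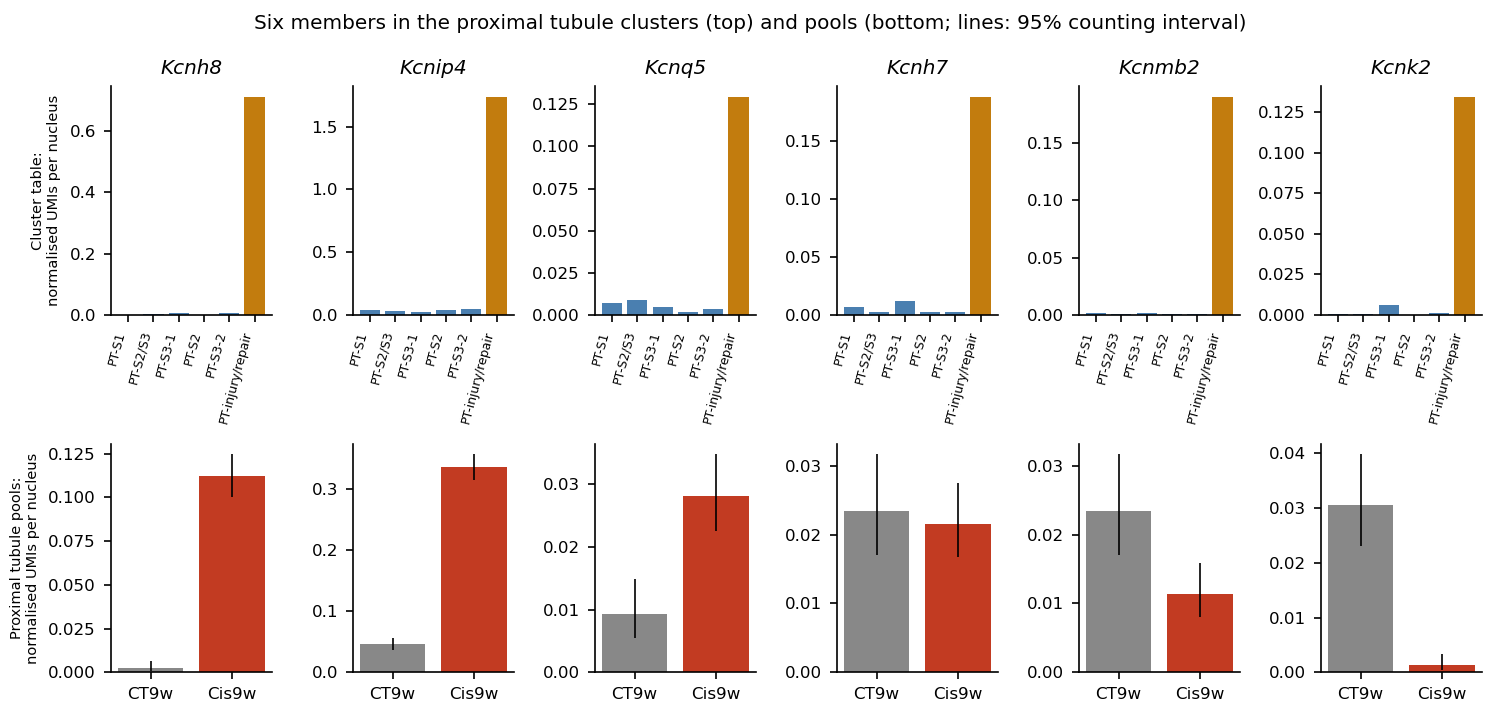
Top row, averages (bars, normalised UMIs per nucleus) of Kcnh8, Kcnip4, Kcnq5, Kcnh7, Kcnmb2 and Kcnk2 in the 6 proximal tubule clusters, with PT-injury/repair in orange. Bottom row, the same genes in the CT9w (grey) and Cis9w (red) pools with 95% counting intervals as lines: all 6 are high in PT-injury/repair, but in the Cis9w pool Kcnh8, Kcnip4 and Kcnq5 are higher, Kcnh7 similar, and Kcnmb2 and Kcnk2 lower.

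Of the 6 members with their highest average in PT-injury/repair, Kcnh8, Kcnip4 and Kcnk10 (2 and 14 UMIs) had a higher average in Cis9w, and Kcnh7, Kcnma1 and Kcnmb2 a lower one. Of these 6, Kcnh8 and Kcnip4 passed the p.

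The other 4 falls were of genes seen in the third proximal segment or the thick ascending limb. For Kcng1 the UMIs were 19 in CT9w (0.0104) against 2 in Cis9w (0.000654), a fall of 15.9-fold (3.83 to 140.5), and the authors' deposited table gave it p = 0.000447. Kcnb2 had 367 UMIs (0.2) and 281 (0.0918), a fall of 2.18-fold (1.86 to 2.56), and the authors' deposited table gave it p = 0.00371. Kcnh1 had 47 (0.0257) and 27 (0.00882), a fall of 2.91-fold (1.77 to 4.85), and the authors' deposited table gave it p = 0.0223. Kcnh1 overlaps Hhat on the opposite strand, and the part of Hhat reads in its values was not tested. These 3 genes were higher in the PT-S3 clusters than in PT-S1, though Kcnb2 and Kcnh1 were highest in Mixed-1.

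A list of 8 third-segment markers, chosen with results known, had a summed average of 19.5 in PT-S3-2 and 17.6 in PT-S3-1. It was 7.63 in PT-S2/S3 and 0.895 in PT-S1. In the pools it went from 14.9 to 5.37 (ratio 0.36), with all 8 lower and 7 past the p. Because the results were known at the choice, nothing is read from these counts. Kcng1, Kcnb2 and Kcnh1 were lower in the same pool as this list, and the part of segment composition was not tested. Kcnma1, also higher in the PT-S3 clusters than in PT-S1, did not pass the p. Kcnt1, a thick ascending limb gene by cluster, had 15 UMIs (0.00819) and 3 (0.000981), a fall of 8.35-fold (2.36 to 45.0), and the authors' deposited table gave it p = 0.0361. The 8 thick ascending limb markers went from a summed average of 3.39 to 3.15 (ratio 0.932), with none past the p. Cldn10, which was highest in PT-S2, made up most of that sum, and without it the other 7 went from 1.46 to 1.05 (ratio 0.715, 5 of 7 lower). The part of thick ascending limb nuclei in the fall of Kcnt1 was not tested.

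Counting error alone set more members apart. By a ratio of at least 2-fold with an interval that left out 1, 16 of 55 members differed (29.1%), 10 higher and 6 lower, against 5.95% of genes (3.51% higher and 2.44% lower). The 7 named above were among them. The other 9 were Kcnq3 (1 and 23 UMIs, ratio 13.8, 2.24 to 567), Kcne1 (2 and 28, 8.38), Kcns3 (1 and 12, 7.18), Kcnh5 (3 and 23, 4.59), Kcnq5 (17 and 86, 3.03), Kcnj10 (9 and 39, 2.59), Kcnd3 (9 and 35, 2.33), Kcnq1 (65 and 223, 2.05) and Kcnmb2. Their p-values in the authors' deposited table ran from 0.0641 for Kcne1 to 1 for Kcnd3. Counting intervals leave out the variation between nuclei and animals, so these are ratios of the 2 pools only.

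Most of those that were higher are genes of the distal nephron by cluster. Kcne1, Kcnh5 and Kcnq1 were highest in PC, Kcnj10 in CNT, and Kcnq3 and Kcns3 in IC-A/IC-B. Marker lists of these and of some other cell types had higher sums in Cis9w. The summed average of 8 intercalated cell markers went from 0.0721 to 0.176 (ratio 2.44, 6 of 8 higher), of 6 connecting tubule markers from 1.04 to 1.73 (1.67, 5 of 6) and of 7 principal cell markers from 0.0775 to 0.105 (1.36, 5 of 7). Slc8a1 made up most of the connecting tubule sum, and the other 5 had a ratio of 1.33. Outside the tubule, 7 podocyte markers had a ratio of 2.07 (7 of 7 higher) and 8 endothelial markers 1.51 (7 of 8). No marker of these 5 lists was at 0 in either pool. The 9 immune markers had a ratio of 0.769 (5 of 9 higher). Of their CT9w sum of 0.151, Csf1r made up 0.095, and its own ratio was 0.496 (0.395 to 0.622). The 12 fibroblast, mesangium and pericyte markers had a ratio of 0.99 (10 of 12 higher). Of their CT9w sum of 0.071, Notch3 made up 0.0388, and its own ratio was 0.455 (0.314 to 0.658). Each of these sums thus rested largely on a single lower gene, while most markers of both lists were higher. Kcnq5 was highest in Immune cells and Kcnd3 in Mixed-1. Kcnj1, which spans the distal clusters, had 69 and 129 UMIs and a ratio of 1.12 (0.829 to 1.52), and the 6 distal convoluted tubule markers a ratio of 1.05. The part of nuclei of other types or free RNA in these ratios was not tested. Kcnq1ot1, on the strand opposite Kcnq1, had a ratio of 1.02 (0.975 to 1.07).

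Kcnj15, Kcnj16, Kcnk5 and Kcnma1, which had high averages in proximal tubule clusters, stayed within 1.5-fold between the pools. Kcng1 and Kcnh4, also mainly proximal tubule genes by cluster but at lower averages, did not. For Kcnj15 the UMIs were 6798 in CT9w (3.71) against 9414 in Cis9w (3.08), and the ratio was 0.829 (0.804 to 0.856). Kcnj16 had 4564 (2.49) and 7574 (2.48), a ratio of 0.994 (0.958 to 1.03). Kcnk5 had 2603 (1.42) and 4239 (1.39), a ratio of 0.975 (0.928 to 1.02). Kcnma1 had 1374 (0.75) and 1795 (0.587), a ratio of 0.782 (0.729 to 0.84). The p of each of these 4 was 1 in the authors' deposited table. Kcnj15 and Kcnma1 were lower beyond counting error, and Kcnj16 and Kcnk5 were not. The summed average of the 10 proximal tubule markers had a ratio of 0.976, with 6 higher, among them Slc5a12 (1.25, 1.22 to 1.28). Slc7a13, which is also on the third-segment list, fell 3.49-fold (3.35 to 3.63), and the authors' deposited table gave it p = 6.62e-10. Without it the other 9 had a ratio of 1.05.

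Some members with many UMIs lay between these and the called ones. Kcnh4, of the first and second segments, had 157 and 138 UMIs (0.0857 and 0.0451), a ratio of 0.526 (0.416 to 0.666), and the authors' deposited table gave it p = 0.0941. Kcnk1 had 59 and 185 UMIs and a ratio of 1.88 (1.39 to 2.56), Kcnip2 25 and 81 and 1.94 (1.23 to 3.17), and Kcnc2 552 and 1245 and 1.35 (1.22 to 1.495). Of the 20 members with at least 100 UMIs over both pools, 12 had a ratio between 0.67 and 1.5. A further 14 members had under 10 UMIs, 6 had none in CT9w and 2 none in Cis9w. None of them met the 2-fold counting rule, and for all but Kcnip3 the interval included 1. Kcnip3 had none in CT9w and 8 in Cis9w, with a lower interval end of 1.02. Set against 3 UMIs in CT9w, its fold was 1.60.

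**Figure D5:**
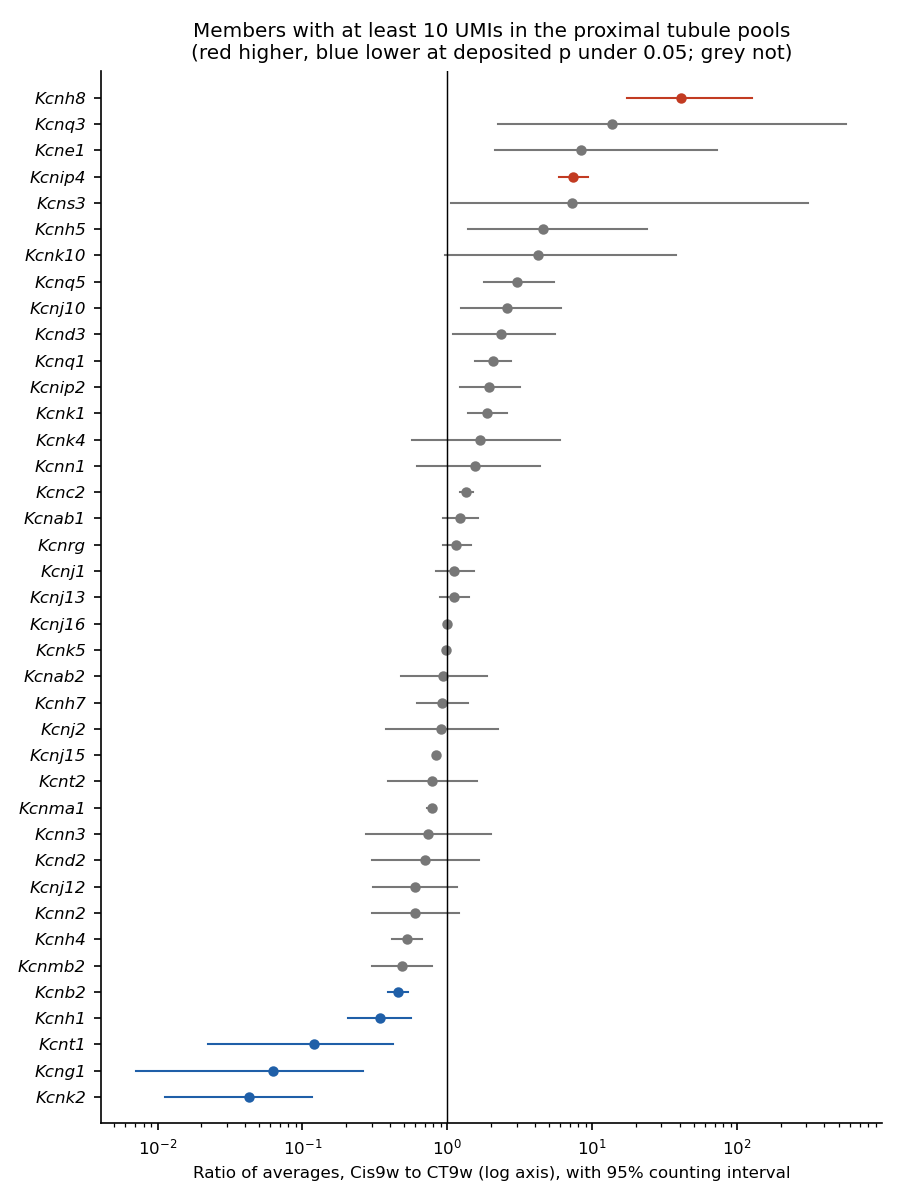
Ratios of the Cis9w to the CT9w average (points, log axis) with 95% counting intervals (lines) for 39 of the 41 members with at least 10 UMIs over both pools. Kcnh8 and Kcnip4 (red) and Kcnb2, Kcnh1, Kcnt1, Kcng1 and Kcnk2 (blue) had a deposited p under 0.05, and Kcnj16, Kcnk5 and Kcnj15 have the narrowest intervals, close to 1.

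By family, no inward rectifier of 10 listed and no KCNQ gene of 3 passed the p. EAG-family genes had 1 rise (Kcnh8) and 1 fall (Kcnh1) among 5, voltage-gated pore subunits 1 fall (Kcnb2) among 6, silent subunits 1 fall (Kcng1) among 5, and two-pore-domain genes 1 fall (Kcnk2) among 7. Calcium- and sodium-activated genes had 1 fall (Kcnt1) among 7, and auxiliary subunits 1 rise (Kcnip4) among 10. The median log2 fold change of the 55 members in the authors' deposited table was 0.15, against 0.04 over all genes.

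Other genes of potassium handling were read from a list of 46 pumps, cotransporters, sodium channel subunits, kinases, hormone-response genes and channel partners, of which 42 are in the pools. Of these, 2 rose and 1 fell, where over all genes 0.995% were higher and 1.14% lower at that p. Scnn1b, a subunit gene of the epithelial sodium channel, had 21 and 114 UMIs, a ratio of 3.25 (2.03 to 5.45), and the authors' deposited table gave it p = 0.0188. Hsd11b2, whose enzyme keeps cortisol-type steroids from the aldosterone receptor, had 18 and 91 UMIs, a ratio of 3.03 (1.81 to 5.33), and the authors' deposited table gave it p = 0.0311. Both were highest in PC, and they are themselves the 1 called gene each of the connecting tubule and principal cell marker lists. Abcc9 fell 2.01-fold (1.66 to 2.44), from 240 to 199 UMIs, and the authors' deposited table gave it p = 0.0278. Its pore partner Kcnj8 had 2 and 4 UMIs in the pools.

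Atp1b1, a sodium pump subunit gene, had a ratio of 0.99 (0.949 to 1.03). The cotransporter genes Slc12a1 of the thick ascending limb and Slc12a3 of the distal convoluted tubule had ratios of 0.681 (0.634 to 0.733) and 0.865 (0.79 to 0.947). The median log2 fold change of the 42 genes in the authors' deposited table was -0.13.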

How the data were processed

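The members and lists were chosen with earlier results of these data known. Per the labels' protocols, nuclei were prepared from kidney and sequenced with a droplet 3' kit. The submitters' processing notes name Cell Ranger 5.0.1 and mm10. Clustering, filters on nuclei, treatment of doublets and free RNA, and the authors' statistical test were not given in the sources used here. Per the file headers, the columns of each table are averages, log2 fold changes and p-values. The averages are a signal that the authors deposited, normalised UMIs per nucleus, scaled so that each column sums to 2008 in the cluster table and 2797 in the proximal tubule table, so levels were not compared across tables. The deposited log2 fold changes set Cis9w against CT9w, or a cluster against the remaining nuclei. The deposited p-value was used for Cis9w against CT9w only.

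UMI sums were recovered from the averages, since at least 99.995% of values were whole multiples of 1 step within 0.1 UMI. A count test could not be fitted, because each group has 1 pooled column and no residual degrees of freedom. Ratios of averages have 95% Clopper-Pearson intervals, and a group at 0 was set to 3 UMIs. Members were named if the deposited p was under 0.05 or the pools differed at least 2-fold with an interval that left out 1, up to 4 per cluster by deposited log2 fold change, and 12 fixed ones. The third-segment list, and the marker sums without Cldn10, Slc8a1, Slc7a13 or Aqp1, were added after seeing the data. Levels were compared within a gene, not between genes, since gene length was not taken into account. Scripts used Python 3.11.15, numpy 2.4.6, pandas 2.3.3, scipy 1.17.1 and matplotlib 3.10.9, and were tested on simulated data. Some members and genes are not reported here by name.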

Additional observations from a re-analysis of the deposited data

How the results depend on the processing

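No paired analysis was possible because no column of either table belongs to a sample, and for the same reason no replicate could be left out. By the counting interval and a 2-fold ratio, 16 members differed in place of 7, with 10 higher in place of 2. With a deposited p under 0.01 (the authors' deposited table), 3 members were lower in place of 5, without Kcnh1 and Kcnt1, and none of the 3 potassium handling genes passed, a count of 0. A member threshold of 0.005 (69 members) or 0.02 (52 members), a minimum of 10 UMIs, a log2 fold change of 1 or more, and subtraction of the median log2 fold change (0.04) left each of these counts within 1.5 times, where run, and all 7 members kept their direction with a pseudocount of 0.001. At the threshold of 0.02, Kcng1 (highest average 0.0159) was no longer a member, so 4 members were lower in place of 5. Without Mixed-1 and mixed-2, 7 members were highest in EC1 in place of 2. With 4 UMIs or fewer in 1 pool for Kcnk2, Kcng1 and Kcnt1, their folds are known only within wide intervals.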

Other observations

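Below the threshold of 0.01 were 23 further Kcn genes, with 1 to 9 UMIs in their highest cluster. Among them were Kcnj11, the pore subunit gene of the pancreatic ATP-sensitive channel (3 UMIs in TAL), and Kcna1, a gene linked to magnesium handling in the distal tubule, which had 6 UMIs in PT-injury/repair. At this depth their distribution over clusters could not be resolved.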
